A study of Mus musculus with 8 samples.

Results

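Expression of 7 enzymes that build glycerolipids and triglyceride was compared in mouse liver between vehicle and sudachitin treatment at 2 times of day. The enzymes were Gpam, Agpat2, Lpin1, Lpin2, Mogat1, Dgat1 and Dgat2. They were taken by gene symbol from a table of 55421 transcripts with 1 row for each symbol, and all 7 passed the filter on low counts that left 14506 transcripts for testing. All mice were male C57BL/6J, were bought at 4 weeks of age, and ate a high-fat diet with 45% of calories from fat, so neither lean nor female livers are represented. Control mice received PBS by gavage and treated mice received 100 mg of sudachitin, a polymethoxylated flavone from citrus, per kg of body weight, every other day between ZT8 and ZT10. ZT, or zeitgeber time, counts hours from lights on. Livers were collected from mice aged 30 weeks, at either ZT6 (light phase) or ZT18 (dark phase). The groups are control ZT6, control ZT18, sudachitin ZT6 and sudachitin ZT18, with 2 mice and 1 poly(A) RNA library per mouse in each. The time points are single collections from different animals, so no mouse was followed over the day.

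Hepatocytes make most of their triglyceride through the glycerol 3-phosphate pathway. A glycerol 3-phosphate acyltransferase such as Gpam adds the first fatty acid, an acylglycerol phosphate acyltransferase such as Agpat2 adds the second to give phosphatidate, and a lipin removes the phosphate to give diacylglycerol. Diacylglycerol is either acylated to triglyceride by Dgat1 or Dgat2 or used for phospholipids. Mogat1 reaches diacylglycerol by another way, by acylating monoacylglycerol. Lipin 1 is also known as a transcriptional coactivator, and Gpam and Dgat2 are known as targets of insulin and feeding signals in liver.

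All 7 counted transcripts are protein-coding on mouse genome GRCm38. Gpam lies on chr19:55067636-55127216 on the minus strand with 22 exons, Agpat2 on chr2:26593057-26604332 on the minus strand with 6 exons, Lpin1 on chr12:16535954-16610966 on the minus strand with 21 exons and Lpin2 on chr17:71183978-71249817 on the plus strand with 20 exons. Mogat1 lies on chr1:78511169-78538171 on the plus strand with 7 exons, Dgat1 on chr15:76502015-76511951 on the minus strand with 17 exons and Dgat2 on chr7:99153658-99182719 on the minus strand with 8 exons.

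The promoters of Gpam and of both lipins are shown because Gpam separated the livers by treatment and both lipins were highest in the same group. Each stretch holds 300 bases, from 250 bases before to 50 after a RefSeq start on GRCm38.p6, and is written 5′ to 3′ on the strand of the gene. Capitals mark a CCAAT box in the Gpam promoter (letters CCAAT, here as ATTGG on the other strand), the nuclear receptor half-site AGGTCA in the Lpin1 promoter and the E-box CACGTG in the Lpin2 promoter.
Gpam, chr19:55127189-55127488, minus strand: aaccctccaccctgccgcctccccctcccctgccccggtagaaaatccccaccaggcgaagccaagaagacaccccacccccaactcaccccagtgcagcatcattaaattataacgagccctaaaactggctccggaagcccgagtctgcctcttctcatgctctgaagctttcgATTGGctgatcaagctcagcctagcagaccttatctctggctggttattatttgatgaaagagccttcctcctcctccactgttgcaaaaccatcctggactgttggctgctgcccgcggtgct
Lpin1, chr12:16610917-16611216, minus strand: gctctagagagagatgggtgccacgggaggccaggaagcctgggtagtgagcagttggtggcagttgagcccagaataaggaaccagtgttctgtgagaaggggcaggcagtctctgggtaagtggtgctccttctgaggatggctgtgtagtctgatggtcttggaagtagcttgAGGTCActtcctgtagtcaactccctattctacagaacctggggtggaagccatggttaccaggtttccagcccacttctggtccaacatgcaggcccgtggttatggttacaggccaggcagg
Lpin2, chr17:71183282-71183581, plus strand: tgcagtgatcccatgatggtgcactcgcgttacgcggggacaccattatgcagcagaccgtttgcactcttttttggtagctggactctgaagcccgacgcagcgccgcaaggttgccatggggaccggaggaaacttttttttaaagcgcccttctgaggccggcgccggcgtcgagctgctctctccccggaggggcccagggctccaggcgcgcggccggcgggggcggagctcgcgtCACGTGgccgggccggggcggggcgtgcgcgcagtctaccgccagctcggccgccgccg
The Gpam match began at -74 from the start, the Lpin1 match at -74 and the Lpin2 match at -9. The Lpin2 stretch was chosen for its E-box: it belongs to a RefSeq start upstream of the counted transcript, the promoter at the counted start holds none of the 5 motifs, and the remaining Lpin2 promoter holds CCAAT only. The other Gpam promoter, not shown, holds AGGTCA at -196. RefSeq promoters were found for 5 of the 7 genes, 8 promoters in all. Each motif was searched on both strands, and none of the letter strings contains another. The E-box was in 1 of the 8 promoters, against 7.15% of 32851 promoters of the same length, and AGGTCA was in 2 of the 8, against 16.3%. CCAAT was in 3 of the 8, against 37.4%. The sterol regulatory element TCACNCCAC was in 0 of the 8 and in 1.24% of all promoters, and the D-box TTATGNAA was in 0 of the 8 and in 3.38%. These matches describe letters in these windows, and binding was not measured.

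The libraries held 13914116 to 17759630.5 counts in exons. Dbp, a clock output gene, was at 40.0 to 66.1 CPM in the 4 ZT6 libraries and at 8.15 to 12.9 CPM in the 4 ZT18 libraries, so the time labels matched its known day phase; CPM here is a count scaled to the size of its library with TMM factors. The liver label matched 6 hepatocyte markers, which summed to 82491 to 102460 CPM. Of 5 exocrine pancreas markers, 4 (Prss2, Cpa1, Amy2a5 and Pnlip) were at 0 in all 8 libraries, while Cela1 was at 4.85 to 29.7 CPM. Library control ZT18 replicate 1 stood apart: for 38.2% of tested transcripts it had the highest or lowest value of all, against 17.4% to 27.7% in each other library. Of 14 male-biased liver genes 12 were lowest there, and 8 female-biased genes summed to 368 CPM there against 2.17 to 28.2 CPM elsewhere. It was also the highest of the 8 libraries for Gpam, Mogat1 and Dgat1 and the lowest for Lpin1, and values without it are given beside several differences of the members.

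Dgat2 and Agpat2 were the most abundant of the 7 transcripts per length and Mogat1 was the least. Median FPKM, the deposited depth- and length-scaled value, was 112.9 for Dgat2, 85.8 for Agpat2, 36.7 for Gpam, 19.4 for Lpin2, 5.47 for Lpin1, 4.42 for Dgat1 and 0.519 for Mogat1 over the 8 livers. Among all tested transcripts these medians stood between the 24.3th percentile for Mogat1 and the 98.0th for Dgat2. The order from Dgat2 through Agpat2 to Gpam held in all 8 libraries, but the FPKM ranges of Dgat2 and Agpat2 over the libraries overlapped. Lpin2 exceeded Gpam in 1 library, sudachitin ZT18 replicate 1, and Dgat1 exceeded Lpin1 in 1 library, control ZT18 replicate 1. The FPKM ranges were apart between Agpat2 and Gpam, between Lpin2 and Lpin1 and between Dgat1 and Mogat1.

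At each step 1 isozyme held most of the transcript. Gpam made up 50.4% to 79.3% of the summed FPKM of the 4 glycerol 3-phosphate acyltransferases (median 72.1%), and its share was lowest in sudachitin ZT18 replicate 1, where the endoplasmic reticulum isozyme Gpat4 held 42.6%. Agpat2 made up 71.5% to 83.4% of the second-step enzymes, with Agpat3 next at 11.6% to 21.8%. Lpin2 held 65.0% to 81.9% of the lipin FPKM, Lpin1 16.1% to 33.1% and Lpin3 0.971% to 3.32%. Dgat2 held 95.9% to 96.7% of the FPKM of the last step in every library, which was the narrowest range of these shares. Mogat1 held 87.3% to 98.0% of the Mogat1 and Mogat2 sum, a sum that was itself only 0.285 to 3.22 FPKM.

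**Figure D1:**
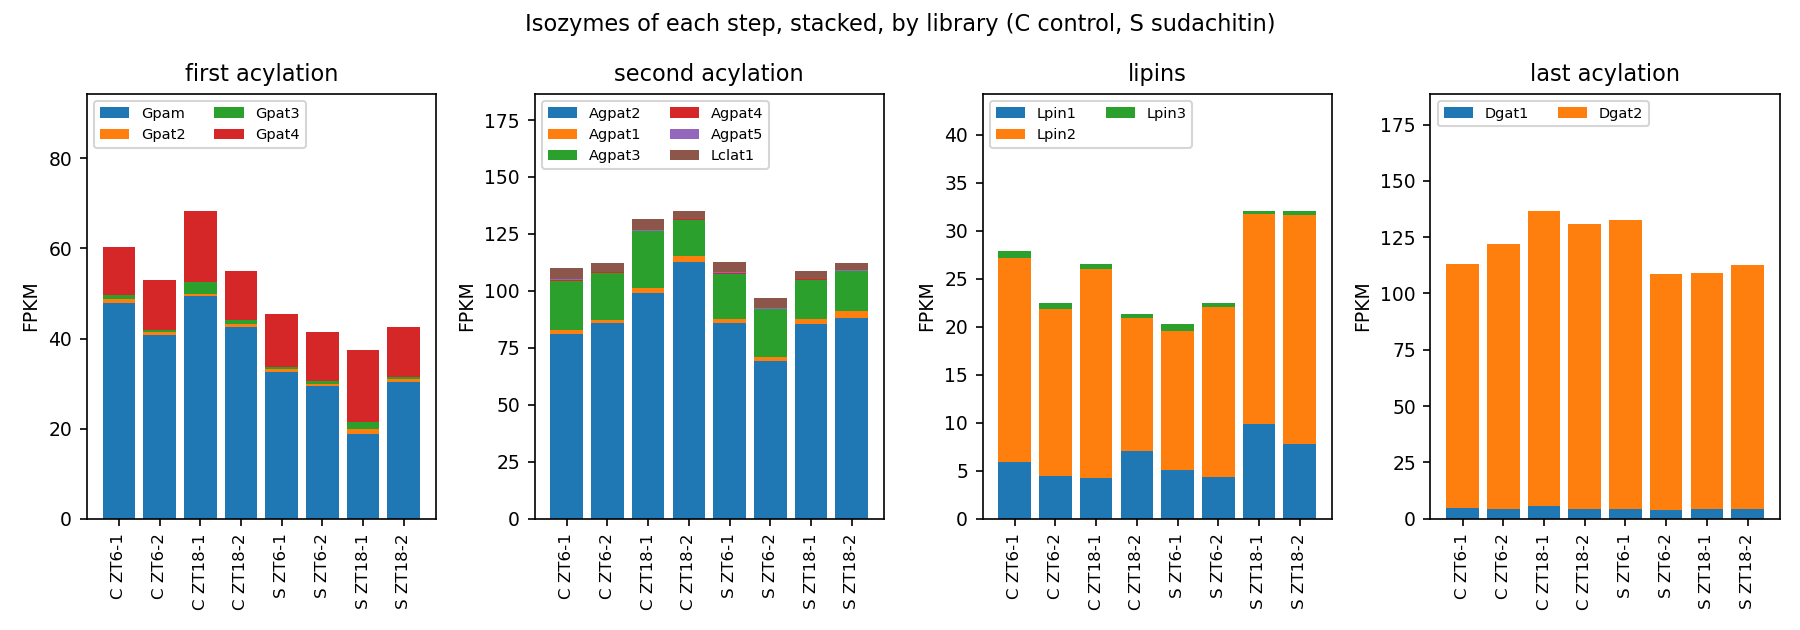
Stacked bars give FPKM (y axis) of the isozymes of each step in each of the 8 libraries (x axis, C control, S sudachitin, followed by time and replicate). The first-step sum was 53.0 to 68.4 FPKM in the controls and 37.4 to 45.4 FPKM in the sudachitin livers, the lipin sum was highest in the sudachitin ZT18 livers (32.1 FPKM in each), and Dgat2 filled nearly the whole bar of the last step.

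Gpam, the mitochondrial enzyme of the first acylation, was lower in every sudachitin liver than in every control liver, but the difference did not pass the adjusted threshold. It was at 627 and 532 CPM in controls and 431 and 381 CPM with sudachitin at ZT6, and at 632 and 587 CPM in controls and 259 and 426 CPM with sudachitin at ZT18. The 4 controls thus lay at 532 CPM or above and the 4 treated livers at 431 CPM or below, a separation in this direction that 0.869% of tested transcripts also had. Over both times the log2 difference, sudachitin minus control, was -0.67 (SE 0.16, unadjusted p = 0.0018, edgeR quasi-likelihood adjusted p = 0.996), and Gpam was at rank 23 of 14506 by p. In this bulk tissue, fewer cells that carry a transcript and less of it per cell cannot be told apart.

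The Gpam difference was -0.51 at ZT6 (SE 0.22, edgeR adjusted p = 0.9999) and -0.83 at ZT18 (SE 0.22, edgeR adjusted p = 0.65), without overlap of the groups at either time. Groups of 2 that do not overlap were common: 31.7% of tested transcripts had this at ZT6 and 30.8% at ZT18. The ZT18 value depended on the liver with the lowest Gpam: it was -0.52 without sudachitin ZT18 replicate 1 and -1.24 without replicate 2. DESeq2 called Gpam at ZT18 (-0.83, SE 0.21, adjusted p = 0.036) and over both times (-0.67, adjusted p = 0.024). Why the 2 tools differ in this call was not tested. Over the 16 alternatives tried for both times together, the adjusted p ran from 2.13e-06 without the filter on low counts to 0.9999, and 2 of the 16 called Gpam. The log2 difference itself stayed between -0.79 and -0.51 in all 16. Between times in controls Gpam differed by 0.07 (SE 0.22, edgeR adjusted p = 0.92), or 0.0095 without control ZT18 replicate 1. In sudachitin livers the time difference was -0.24 (SE 0.22, edgeR adjusted p = 0.70). That value was 0.068 without sudachitin ZT18 replicate 1 and -0.65 without replicate 2. Without control ZT18 replicate 1 the treatment difference of Gpam over both times was -0.62.

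Agpat2, which adds the second fatty acid, was higher at ZT18 than at ZT6. It was at 257 and 269 CPM in controls and 274 and 216 CPM with sudachitin at ZT6, and at 305 and 376 CPM in controls and 282 and 299 CPM with sudachitin at ZT18. Every ZT18 liver was thus above every ZT6 liver, as for 5.99% of tested transcripts. The difference over both treatments, ZT18 minus ZT6, was 0.31 (SE 0.11, edgeR adjusted p = 0.14), so it did not pass. It was 0.37 (SE 0.16) in controls and 0.25 (SE 0.16) in sudachitin livers, and the control value was 0.51 without control ZT18 replicate 1 and 0.22 without replicate 2. With treatment the difference was -0.17 (SE 0.11) over both times.

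**Figure D2:**
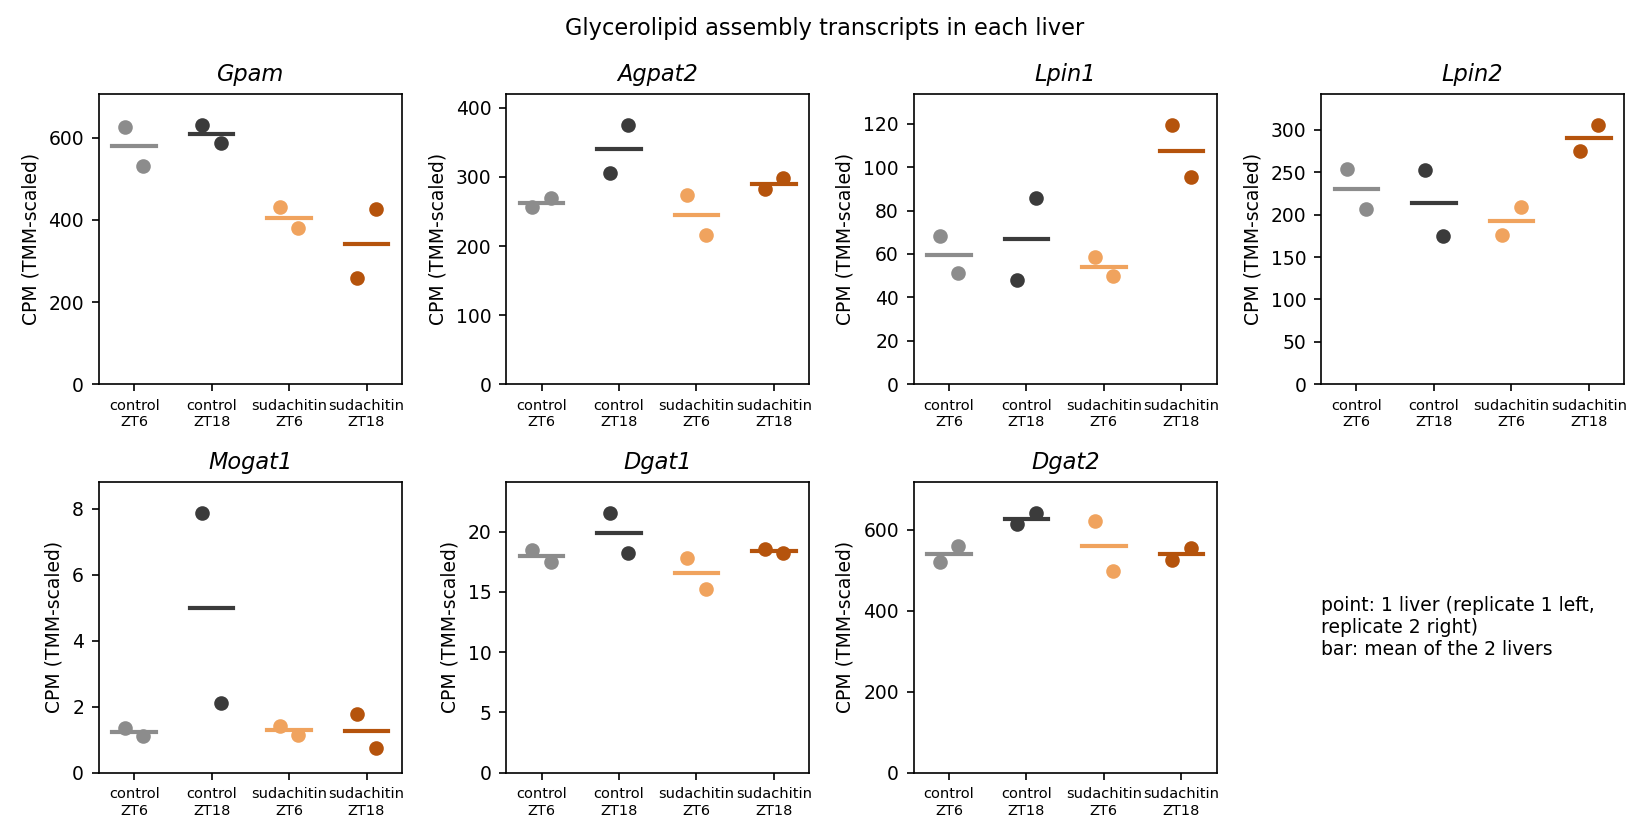
Each panel plots TMM-scaled CPM (y axis, from 0) of 1 transcript in the 2 livers of each group (points) with the group mean (line), for the 4 groups of treatment and time (x axis). Gpam is at 532 CPM or more in the 4 controls and at 431 CPM or less in the 4 sudachitin livers, while Mogat1 has a single liver, control ZT18 replicate 1, at 7.87 CPM and the other 7 at 0.763 to 2.11 CPM.

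The 2 lipins that dominate in liver were both highest in the sudachitin livers at ZT18. Lpin1 was at 68.1 and 51.2 CPM in controls and 58.6 and 49.6 CPM with sudachitin at ZT6, and at 48.1 and 85.7 CPM in controls and 119.5 and 95.5 CPM with sudachitin at ZT18. Lpin2 was at 254 and 207 CPM in controls and 177 and 209 CPM with sudachitin at ZT6, and at 253 and 175 CPM in controls and 275 and 306 CPM with sudachitin at ZT18. For both genes the 2 sudachitin ZT18 livers were above all 6 others. The share of tested transcripts with that order was not counted, so how unusual it is cannot be said. The 2 control ZT18 livers were far apart and in opposite order for the 2 genes, with the lowest Lpin1 of the study in replicate 1 and the lowest Lpin2 in replicate 2.

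Within sudachitin livers Lpin1 differed by 0.99 between ZT18 and ZT6 (SE 0.27, unadjusted p = 0.0052, edgeR adjusted p = 0.18) and Lpin2 by 0.59 (SE 0.20, unadjusted p = 0.015, edgeR adjusted p = 0.28). Within controls the same time difference was 0.16 (SE 0.27) for Lpin1 and -0.11 (SE 0.19) for Lpin2. The test of whether the time difference itself depended on treatment gave 0.83 (SE 0.38, edgeR adjusted p = 0.998) for Lpin1 and 0.70 (SE 0.28, edgeR adjusted p = 0.998) for Lpin2, so a difference between treatments in the time effect was not shown. These values turned on the control ZT18 livers: without replicate 1 the interaction was 0.46 for Lpin1 and 0.98 for Lpin2, and without replicate 2 it was 1.29 and 0.45. The time difference within controls was 0.51 for Lpin1 and -0.41 for Lpin2 without replicate 1, and -0.30 and 0.14 without replicate 2. At ZT18, sudachitin minus control was 0.69 (SE 0.26, edgeR adjusted p = 0.73) for Lpin1 and 0.44 (SE 0.20, edgeR adjusted p = 0.77) for Lpin2, and at ZT6 it was -0.14 (SE 0.27) and -0.26 (SE 0.20).

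Several Lpin1 values turned on 1 library. DESeq2 called the Lpin1 time difference in sudachitin livers (adjusted p = 0.00853), and so did edgeR without control ZT18 replicate 1 (adjusted p = 0.042) or without replicate 2 (adjusted p = 0.0404). Those control libraries are in neither group of that comparison. They enter it through the shared estimate of the spread, the filter, the TMM factors and the adjustment over all tested transcripts. Which of these moved the adjusted p was not tested. Over its 17 alternatives the adjusted p ran from 1.68e-06, without the filter on low counts, to 0.62, and 4 called it. Over both treatments Lpin1 differed by 0.58 between the times (SE 0.23, edgeR adjusted p = 0.19), and without control ZT18 replicate 1 by 0.80 (SE 0.15, edgeR adjusted p = 0.016). At ZT18 the treatment difference of Lpin1 was 0.33 without control ZT18 replicate 1 and 1.16 without replicate 2, and that of Lpin2 was 0.73 without replicate 1 and 0.20 without replicate 2. The FPKM ratio of Lpin2 to Lpin1 ranged from 1.97 in control ZT18 replicate 2 to 5.07 in control ZT18 replicate 1, which were livers of 1 group, and the other 6 libraries lay between these.

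Mogat1, the monoacylglycerol acyltransferase, was low in every liver and was highest in 1 control. It was at 1.37 and 1.11 CPM in controls and 1.41 and 1.16 CPM with sudachitin at ZT6, and at 7.87 and 2.11 CPM in controls and 1.78 and 0.763 CPM with sudachitin at ZT18, from 12.5 to 141 counts per library. Control ZT18 replicate 1 held the 141 counts, and the other 7 libraries held at most 30. The difference ZT18 minus ZT6 in controls was 2.02 (SE 0.62, edgeR adjusted p = 0.24), 0.76 without control ZT18 replicate 1 and 2.67 without replicate 2 (SE 0.41, edgeR adjusted p = 0.019). At ZT18, sudachitin minus control was -1.98 (SE 0.60, edgeR adjusted p = 0.71), -0.73 without control ZT18 replicate 1 and -2.63 without replicate 2 (SE 0.40, edgeR adjusted p = 0.023). The calls made without replicate 2 thus rest on the 1 remaining control liver, whose spread is assumed to be that of the other groups. In sudachitin livers the time difference was -0.02 (SE 0.67), and at ZT6 the treatment difference was 0.06 (SE 0.68).

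Marker genes were read in the same library, and Cidec and Pparg were chosen after their values were seen. Cidec, a lipid droplet protein, was at 88.7 CPM there and at 1.35 to 21.1 CPM in the other 7 livers, and Pparg, a regulator of fat storage, was at 20.6 CPM against 6.52 to 15.8. The 7 adipocyte markers, of which Cidec is one, summed to 122 CPM there and to 24.4 CPM in the other liver of its group. They summed to 26.3 and 32.8 CPM in controls and 17.4 and 21.8 CPM with sudachitin at ZT6, and to 46.0 and 12.9 CPM with sudachitin at ZT18. Of the 7, Adipoq, Lep, Plin1 and Retn were at 0 in control ZT18 replicate 1 and at 0.211 CPM at most in any other liver. Cfd and Lpl were, like Cidec, highest in control ZT18 replicate 1. Cfd was at 15.3 CPM there and at 2.34 to 15.0 CPM elsewhere, and Lpl at 18.4 CPM there and at 6.11 to 17.4 CPM elsewhere. The part of these genes in the Mogat1 values was not tested. The Mogat1 transcript shares 188 exon bases with BC035947 on the opposite strand, and the libraries carry no strand, so reads from the shared bases cannot be told apart. BC035947 was itself counted 17.5 times in control ZT18 replicate 1 and 0 to 5.5 times in the others. The other 6 transcripts overlap no exon of another row among the 54976 of 55421 that were found in GENCODE mouse release 21.

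Dgat1 and Dgat2, which add the last fatty acid, varied least. Dgat1 was at 18.5 and 17.5 CPM in controls and 17.8 and 15.3 CPM with sudachitin at ZT6, and at 21.5 and 18.3 CPM in controls and 18.5 and 18.2 CPM with sudachitin at ZT18. Dgat2, the isozyme tied to newly made fatty acids, was at 520 and 561 CPM in controls and 622 and 498 CPM with sudachitin at ZT6, and at 614 and 641 CPM in controls and 526 and 556 CPM with sudachitin at ZT18. The highest of the 8 libraries was 1.29 times the lowest for Dgat2 and 1.41 times for Dgat1, against 1.74 for Agpat2, 1.75 for Lpin2, 2.44 for Gpam, 2.49 for Lpin1 and 10.3 for Mogat1. The FPKM ratio of Dgat2 to Dgat1 was between 23.4 and 29.2 in all 8 libraries.

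No difference of either Dgat gene passed the adjusted threshold with edgeR. Between ZT18 and ZT6 in controls Dgat2 differed by 0.22 (SE 0.14) with no overlap of the groups, as for 42.4% of tested transcripts in either direction. Dgat1 differed by 0.15 (SE 0.14), or 0.012 without control ZT18 replicate 1. In sudachitin livers the time difference was -0.05 (SE 0.14) for Dgat2 and 0.15 (SE 0.14) for Dgat1. At ZT18, sudachitin minus control was -0.21 (SE 0.14) for Dgat2 and -0.12 (SE 0.14) for Dgat1, or 0.011 for Dgat1 without control ZT18 replicate 1. Over both times these treatment differences were -0.08 (SE 0.10) and -0.12 (SE 0.09), and the Dgat1 value was -0.064 without control ZT18 replicate 1.

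**Figure D3:**
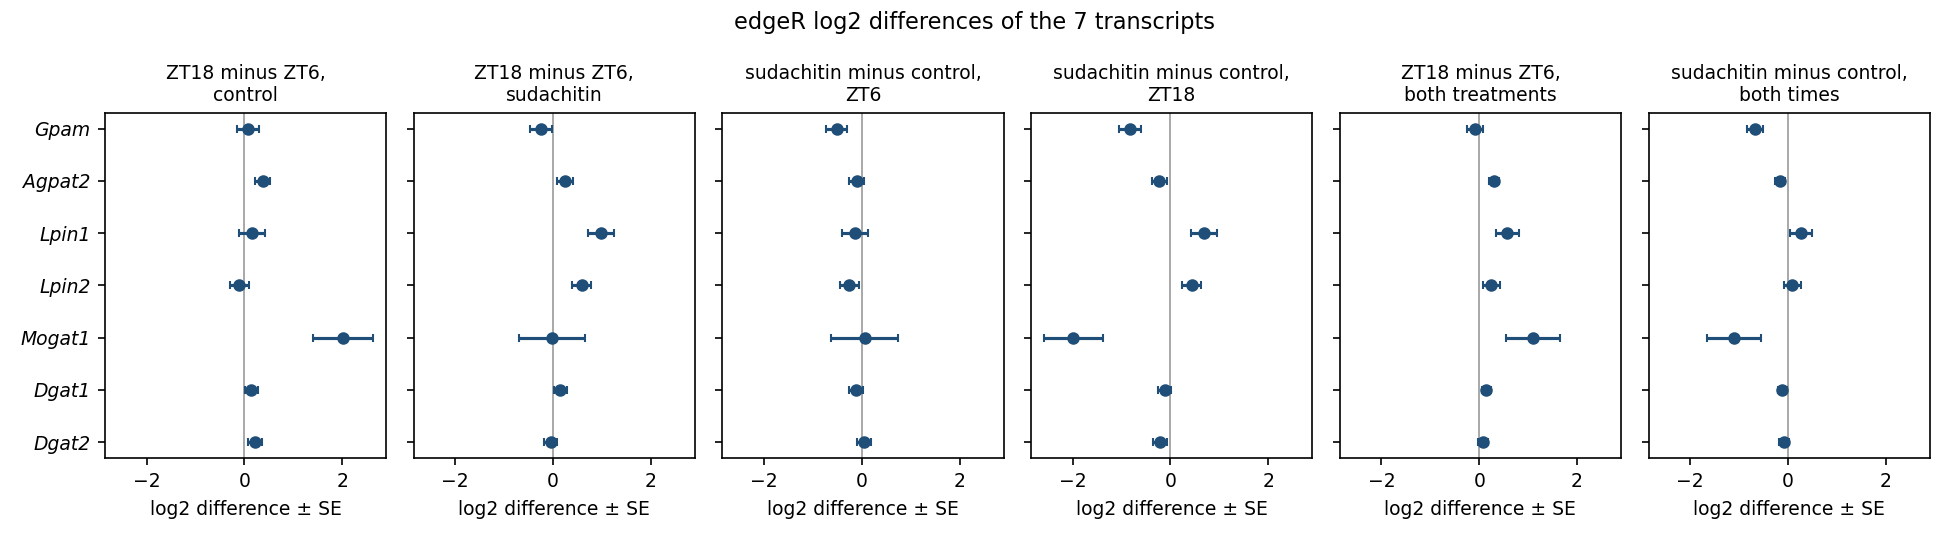
Points give the edgeR log2 difference of each of the 7 transcripts (x axis, bars are 1 SE) in 6 comparisons, one per panel. None passed an adjusted p of 0.05; the values farthest from 0 are those of Mogat1 with control ZT18 livers (2.02 and -1.98), and Gpam lies left of 0 in the 3 panels of sudachitin against control (-0.51, -0.83 and -0.67).

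Across the 7 transcripts, edgeR's quasi-likelihood test called 0 of 7 in each of the 7 comparisons. Between times in controls 0.524% of tested transcripts were called, and 2 of the 7 (Agpat2 and Mogat1) had an unadjusted p under 0.05 where 12.9% of all did. The groups of that comparison did not overlap for Agpat2, Mogat1 and Dgat2, 3 of the 7, against 42.4% of all. In sudachitin livers 0.186% were called between times, and 2 of the 7 (Lpin1 and Lpin2) had an unadjusted p under 0.05 against 12.6% of all; DESeq2 called Lpin1. There the groups did not overlap for Agpat2, Lpin1, Lpin2 and Dgat1, 4 of the 7, against 45.9% of all. Over both treatments 3.68% were called between times, and 2 of the 7 (Agpat2 and Lpin1) had an unadjusted p under 0.05 against 20.4% of all. A count of 2 among 7 rests on single genes, and 0 passed the adjusted threshold, so these counts are no result about the set as a whole.

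For treatment, 0% of tested transcripts were called at ZT6, and 1 of the 7 (Gpam) had an unadjusted p under 0.05 against 2.12% of all. At ZT18 0.0138% were called, and 3 of the 7 (Gpam, Mogat1 and Lpin1) had an unadjusted p under 0.05 against 6.51% of all; DESeq2 called Gpam. Over both times 0.0207% were called, and 1 of the 7 (Gpam) had an unadjusted p under 0.05 against 4.41% of all; DESeq2 called Gpam. For the interaction 0% were called, and 1 of the 7 (Lpin2) had an unadjusted p under 0.05 against 3.78% of all. DESeq2 called none of the 7 in the other 4 comparisons, and limma on log2 FPKM called none in any. At ZT18 the groups did not overlap for 6 of the 7 transcripts, Lpin1 and Lpin2 higher and Gpam, Agpat2, Mogat1 and Dgat2 lower with sudachitin, against 30.8% of all tested transcripts. The median of the 7 log2 differences at ZT18 was -0.21, and that of all tested transcripts was -0.00207, a difference that was not tested. All 7 values come from the same ZT18 livers, and 0 of the 7 passed the adjusted threshold with edgeR. These counts for treatment are therefore no result about the set as a whole either.

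**Figure D4:**
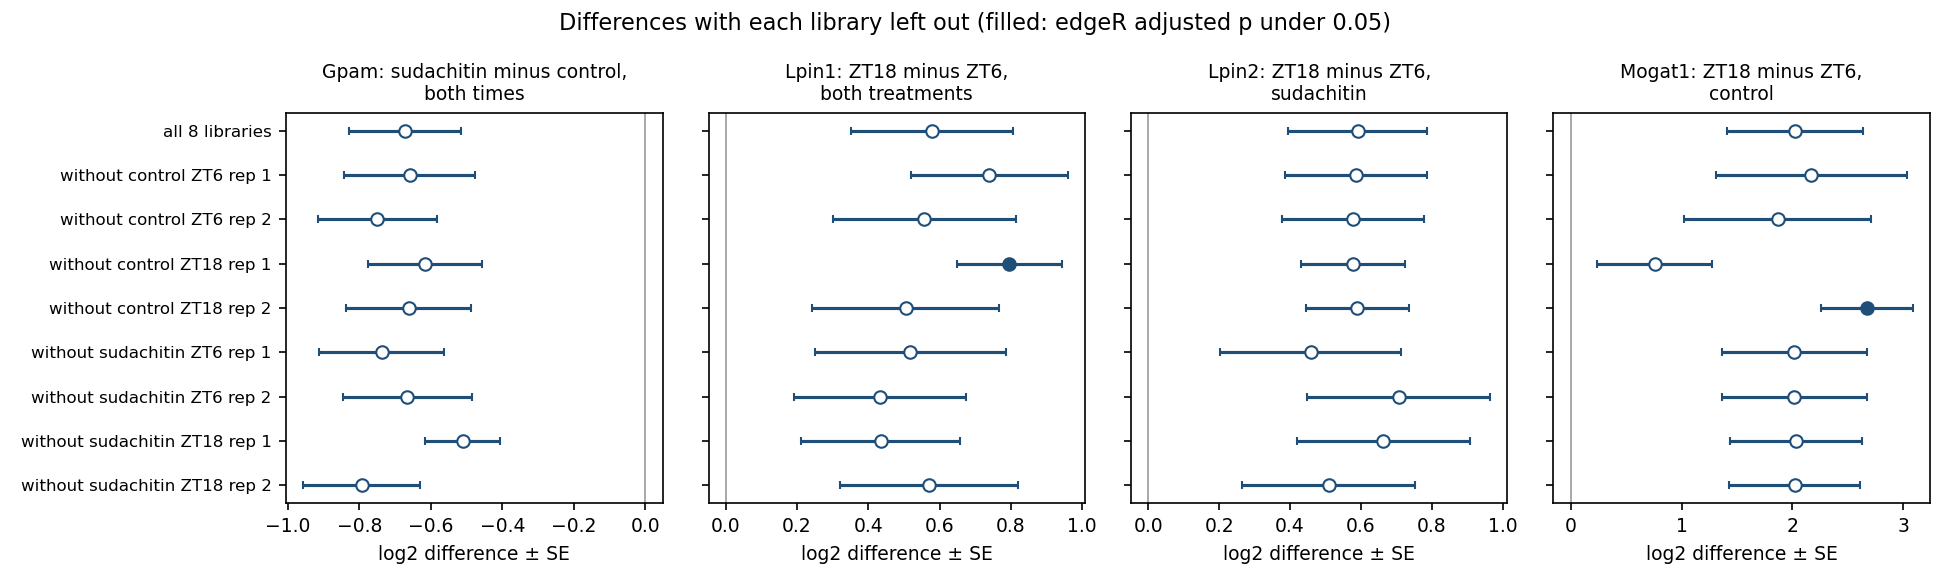
Points give the edgeR log2 difference (x axis, bars are 1 SE) of 4 transcripts with all 8 libraries and with each library left out in turn (y axis); filled points had an adjusted p under 0.05. Gpam stays between -0.79 and -0.51, while Mogat1 between times in controls moves from 2.02 to 0.76 without control ZT18 replicate 1 and to 2.67 without replicate 2.

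Of 59 other genes of the pathway, in 8 lists by role, 51 were tested. Between times over both treatments edgeR called 2 of the 51 (3.92%, against 3.68% of all tested transcripts), so the pathway's share was near the background. DESeq2 called 5 of the 51, and 942 of all 14506 tested transcripts. Of the 5, 4 were higher at ZT18 (Acsl1, Acsl4, Agpat1 and Ptpmt1) and 1 was lower (Nr1h2). Limma at either pseudocount called only Nr1h2 of the 51, and 408 and 392 of the 14506 with pseudocounts of 0.1 and 1. The 2 called by edgeR rose at ZT18 and are acyl-CoA synthetases, which activate fatty acids for the acylation steps. Acsl1, the main form of liver, was at 1021 and 903 CPM in controls and 829 and 850 CPM with sudachitin at ZT6, and at 1728 and 1141 CPM in controls and 1315 and 1423 CPM with sudachitin at ZT18 (0.64, SE 0.13, edgeR adjusted p = 0.032). Acsl4, which prefers arachidonate, was at 56.9 and 45.3 CPM in controls and 40.8 and 39.6 CPM with sudachitin at ZT6, and at 64.9 and 70.5 CPM in controls and 72.9 and 61.1 CPM with sudachitin at ZT18 (0.57, SE 0.11, edgeR adjusted p = 0.030). For both genes every ZT18 liver was above every ZT6 liver, as for 5.99% of tested transcripts. The calls were close to the threshold: of 16 alternatives 8 called Acsl1 (adjusted p from 4.65e-07 to 0.11) and 9 called Acsl4 (adjusted p from 9.07e-05 to 0.11). Acsl1 did not pass with limma or without either control ZT6 library or any 1 of the 4 sudachitin libraries, and Acsl4 did not pass with limma, without replicate 2 of control ZT6 or of control ZT18, without either sudachitin ZT6 library or without sudachitin ZT18 replicate 1. Their differences stayed between 0.51 and 0.76 for Acsl1 and between 0.43 and 0.67 for Acsl4. The other 2 tested genes of that list, Acsl3 (0.32, SE 0.13) and Acsl5 (-0.05, SE 0.11), did not pass over both treatments.

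In the other 6 comparisons 0 of the 51 were called by edgeR and 0 by limma. DESeq2 called 2 between times in sudachitin livers (Acsl1 and Acsl4), where it called 274 of all 14506 tested transcripts. For treatment at ZT18 it called 2 (Gpd2 and Srebf1), where it called 49 of the 14506. In the other 4 comparisons it called 0 of the 51. Between times in controls 10 of the 51 (19.6%, against 12.9% of all tested transcripts) had an unadjusted p under 0.05, with the smallest for Acsl3 (0.55, SE 0.15, edgeR adjusted p = 0.20) and the liver X receptor gene Nr1h2 (-0.40, SE 0.11, edgeR adjusted p = 0.20). In sudachitin livers there were 6 (11.8%, against 12.6% of all), with Acsl4 (0.74, SE 0.15, edgeR adjusted p = 0.10) and Acsl1 (0.71, SE 0.19, edgeR adjusted p = 0.19) first. At ZT6 there were 2 for treatment (3.92%, against 2.12% of all), the CDP-diacylglycerol synthase Cds2 (0.34, SE 0.12) and Acsl4 (-0.34, SE 0.15), both with an edgeR adjusted p of 0.9999.

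At ZT18 there were 4 for treatment (7.84%, against 6.51% of all). The mitochondrial glycerol 3-phosphate dehydrogenase gene Gpd2 (-0.71, SE 0.13, edgeR adjusted p = 0.39) came first. Gpd2 was at 68.7 and 55.6 CPM in control ZT18 livers and at 37.1 and 39.1 in sudachitin ZT18 livers, below all 6 others. How many tested transcripts share that order was not counted. Of 17 alternatives 3 called Gpd2 (adjusted p from 0.00403 to 0.9985). Acsl3 was next (-0.62, SE 0.15, edgeR adjusted p = 0.58). Of the 51, 35 (68.6%) were below 0 at ZT18, with a median of -0.08, against 50.4% and -0.00207 for all tested transcripts, a difference that was not tested. The share below 0 was 66.7% at ZT6, against 51.2% of all, and 68.6% over both times, against 50.3% of all. Within each comparison, all 51 values come from the same livers. Over both times 4 (7.84%, against 4.41% of all) had an unadjusted p under 0.05, with Acsl3 (-0.39, SE 0.13) and Gpd2 (-0.40, SE 0.13) first, both with an edgeR adjusted p of 0.996.

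For the interaction 2 of the 51 (3.92%, against 3.78% of all) had an unadjusted p under 0.05, Gpd2 (-0.61, SE 0.19) and Srebf1 (-1.20, SE 0.44), both with an edgeR adjusted p of 0.998. Srebf1, a transcription factor of fatty acid and glycerolipid synthesis that acts on Gpam, was at 287 and 488 CPM in controls and 552 and 321 CPM with sudachitin at ZT6, and at 467 and 610 CPM in controls and 237 and 291 CPM with sudachitin at ZT18. At ZT6 its groups overlapped, and at ZT18 both sudachitin livers were below both controls (-1.03, SE 0.31, edgeR adjusted p = 0.71). Of all tested transcripts, 30.8% had no overlap of these ZT18 groups, in either direction. Gpd2, Srebf1 and some other genes of these lists overlap a gene on the opposite strand in their exons, so part of their reads cannot be assigned.

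The genes whose level followed each enzyme most closely over the 8 livers were found by Pearson's r of log2 CPM among 8929 genes with a mean of at least 5 CPM. These values describe 8 libraries that share groups and library composition, and no p is given. For Gpam the 3 highest were Larp7 (0.96), Inhbe (0.94) and Xkr9 (0.93). Inhbe, a hepatokine gene, was at 104 and 82.4 CPM in controls and 78.4 and 69.8 CPM with sudachitin at ZT6, and at 107 and 80.4 CPM in controls and 50.6 and 78.1 CPM with sudachitin at ZT18. Inhbe and Larp7 were lower in every sudachitin liver than in every control liver, while the groups overlapped for Xkr9 (14.5 CPM in 1 control, 15.15 CPM in 1 sudachitin liver). All 3 were picked for following Gpam in these livers, so a shared separation is no separate evidence.

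For Agpat2 the 3 highest were Clp1 (0.97), Prox1 (0.97) and Pprc1 (0.97), for Lpin1 Bbs10 (0.97), Ss18 (0.95) and Adh5 (0.95), and for Lpin2 Dnmbp (0.93), B3galt1 (0.93) and Cyp4a32 (0.92). For Mogat1 they were Syap1 (0.99), Tnfrsf12a (0.97) and Kctd10 (0.97), for Dgat1 Pcx (0.98) and Acad12 (0.98), and for Dgat2 Gcc1 (0.98), Txnl4a (0.96) and Heatr1 (0.92). All 5 genes named for Mogat1 and Dgat1 were highest in control ZT18 replicate 1, the library that stood apart. Among the 7 enzymes themselves the highest r was that of Agpat2 with Dgat2 (0.79), followed by Mogat1 with Dgat1 (0.75), and the lowest was that of Gpam with Lpin1 (-0.52). Lpin1 and Lpin2 had an r of 0.41.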

How the data were processed

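Liver poly(A) RNA of 8 mice was read as non-stranded 150-base pairs, per the labels' protocols. Trimmomatic 0.39, STAR 2.7.2a, HOMER (version not given in the sources used here) and genome GRCm38 (mm10) are named in the submitters' processing notes. The deposited counts are estimated counts in exons in steps of 0.5, without normalization per the file headers; they were rounded to whole numbers. The deposited FPKM values are those counts divided by exon length and by the library total that the file headers give. How reads with several positions were treated is not given in the sources used here. Of the transcript identifiers, 54976 of 55421 were found in GENCODE mouse release 21, the source of exons.

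Tests of counts used edgeR 4.0.16 in R 4.3.3 (TMM, default filter by group, quasi-likelihood F test, all 8 libraries in each fit, group means or treatment plus time). Benjamini-Hochberg adjustment covered 14506 transcripts, and the threshold was an adjusted p of 0.05. SE is the size of the log2 difference divided by the square root of F. The analysis was run on simulated counts with the same spread for every transcript and changes between times only. No outlying library was simulated, so that run does not show how the tests behave with these livers. Alternatives were DESeq2 1.42.0, other scalings, no filter on low counts or one at 5 CPM in 2 libraries, fits of the compared groups alone, a replicate block, limma 3.58.1 on log2(FPKM + 0.1) and log2(FPKM + 1), and each library left out. Groups came from sample titles, each naming a mouse, so replicates were taken as separate mice; the codes in the titles are not explained in the sources used here. The members, lists and naming rules were chosen with earlier results of these data known. Named are all 7 members, other pathway genes past the threshold (otherwise the 2 with the smallest p), and the 3 genes nearest to each member by r, predicted genes left out (a neighbour of Dgat1 is not reported here); Cidec, Pparg, Dbp, Acsl5, Agpat1, Ptpmt1 and Nr1h2, from the lists, and Srebf1 at ZT18 were named after their values were seen.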

Additional observations from a re-analysis of the deposited data

How the results depend on the processing

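Each group has 2 mice, and a library left out leaves its group with 1, whose spread is then assumed to be that of the other groups. Mogat1 rests on 12.5 to 141 counts per library, the other members on 223.5 or more. Of 805 recomputed log2 differences of the 7 transcripts, 757 kept their direction and side of the threshold, 19 newly passed it, and 29, in 15 of 49 results, changed sign. The cause was not tested for any change unless stated. With the filter at 5 CPM, Mogat1 was not tested.

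Members called, 0 in each comparison with all libraries, were as follows in the order time in controls, time in sudachitin livers, sudachitin at ZT6, sudachitin at ZT18, interaction, time over both and sudachitin over both. Without the filter on low counts they were 1, 2, 0, 3, 1, 2 and 2, and with DESeq2 0, 1, 0, 1, 0, 0 and 1. Leaving out 1 library gave 0 to 1 in both time comparisons within a treatment, in sudachitin at ZT18 and in time over both, and 0 otherwise.

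All transcripts called, 76, 27, 0, 2, 0, 534 and 3 in the same order, were 262, 274, 9, 49, 14, 942 and 15 with DESeq2 and 881, 861, 67, 488, 259, 1629 and 309 without the filter. With only the groups compared, the first 4 were 4, 53, 10 and 0. With limma they were 41 at either pseudocount for time in controls and 0 at either for sudachitin at ZT18. Leaving out 1 library gave 5 to 323, 1 to 185, 0 to 3, 0 to 194, 0 to 13, 164 to 1048 and 2 to 6. The highest of these came without control ZT18 replicate 2 in 4 comparisons (323, 185, 194 and 13) and without control ZT18 replicate 1 in time over both (1048).

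The same replicate numbers occur in every group, but nothing in the labels links same-numbered livers, so they were not taken as pairs. In a check, deviations of same-numbered livers had r from -0.20 to 0.28, highest between the 2 ZT18 groups. With 2 livers per group, that check cannot show whether same-numbered livers were handled together. With the replicate block, all transcripts called were 43 for time in controls, 1 for sudachitin at ZT6 and 0 for sudachitin at ZT18, the other comparisons stayed within 1.5 times, and none of the 7 members was called.

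Signs changed as follows. Leaving out 1 library gave, for time in controls, -0.054 to 0.19 for Gpam, -0.30 to 0.51 for Lpin1 and -0.41 to 0.14 for Lpin2. For time in sudachitin livers it gave -0.65 to 0.068 for Gpam, -0.75 to 0.46 for Mogat1 and -0.21 to 0.10 for Dgat2. For sudachitin at ZT6 it gave -0.28 to 0.064 for Agpat2, -0.33 to 0.079 for Lpin1, -0.083 to 0.21 for Mogat1 and -0.11 to 0.21 for Dgat2, and at ZT18 -0.23 to 0.011 for Dgat1. For the interaction it gave -0.29 to 0.046 for Agpat2 and -0.12 to 0.12 for Dgat1, which was also -0.016 with total counts, -0.0046 without the filter, and -0.042 and -0.038 with limma. For time over both it gave -0.21 to 0.074 for Gpam, and for sudachitin over both -0.076 to 0.22 for Lpin2.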
